A study of Mus musculus with 96 samples.

Results

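Of the 42403 GATA6 binding regions tabulated over the conversion of mouse embryonic stem (ES) cells to primitive endoderm (PrE), 2054 (4.84%) held both a high-scoring GATA6 motif and a high-scoring SOX17 motif while their OCT:SOX motif was not in the high group. These regions, called the two-motif regions here, were chosen by the 3 motif score groups given with the regions, and no RPM value entered that choice. All 42403 regions are, however, GATA6 peaks called in these data, and the motifs were scanned within those peaks. GATA6 levels are thus not independent of how the regions came to be listed. They are set beside 8623 regions in which only the GATA6 motif was high, 5595 in which only the SOX17 motif was high and 23297 in which neither was, all with an OCT:SOX motif outside the high group, and beside all regions. A motif that was not high was in most cases still present at a lower score in the single-motif sets. A SOX17 motif was present in 5427 of the 8623 GATA6-high-only regions, and a GATA6 motif in 4918 of the 5595 SOX17-high-only regions. In the GATA6-high-only regions 30.2% held 2 to 5 SOX17 motifs, and of the regions with neither motif high 14.4% lacked a GATA6 motif. The cells were clonal KH2-derived ES cells with a doxycycline (Dox)-inducible, HA-tagged Gata6 transgene, collected without Dox (0 h) and after 8 h, 16 h and 1, 2 and 4 days in 1 μg/mL Dox. ES and XEN cells were both kept on inactivated mouse fibroblast feeders. Wild-type XEN cells, a stable line derived from extraembryonic endoderm and given no Dox, served as the end point. In a further pair of conditions the inducible ES cells received control or Oct4 siRNA together with Dox for 48 h. All cells but the XEN cells carry the transgene, and no measure of the knock-down itself was analysed here. ChIP-seq was done for GATA6 (18 libraries), SOX17 (18), OCT4 (13), SOX2 (16), ESRRB (12) and input chromatin (19). Each region has 1 value per antibody and condition, in RPM, reads scaled to library size, taken as pooled over that condition's libraries. There is therefore no spread between replicates and no test between conditions: the 95% intervals given here run over regions or cover counting error only, and a difference is described by its size. In such bulk ChIP, fewer cells with a bound region and less binding per cell cannot be told apart, and no expression was analysed here to check the identity of the cells.

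GATA factors are zinc-finger proteins that read a short GATA word, and SOX factors bind a short A/T-rich word through an HMG box that bends DNA. GATA6 drives the PrE programme of the early embryo, SOX17 follows it, and the PrE goes on to form yolk sac endoderm, which lays down basement membrane and takes up nutrients. OCT4, SOX2 and ESRRB are pluripotency transcription factors (PTFs), and OCT4 with SOX2 binds a joint OCT:SOX motif.

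The motif matches behind the choice were narrow. The best GATA6 match of each two-motif region, 13 bases long, took 1093 different forms, and 2049 of the 2054 (99.8%) held the word GATAA. The best SOX17 match, 9 bases long, took 28 forms, all with the word ATTGT on the motif's strand. On either strand, GATAA occurred in 86.2% of all 42403 regions and ATTGT in 70.8%, so the words themselves were common and the flanking letters set the score. The stretches with the highest summed motif scores are given here because they are the fullest examples of the sequence rule. Each is printed 5′ to 3′ along the strand of its GATA6 match, with both best matches in capitals, on build mm10 (GRCm38).

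AA986860 intron, chr1:130741439-130741525, + strand: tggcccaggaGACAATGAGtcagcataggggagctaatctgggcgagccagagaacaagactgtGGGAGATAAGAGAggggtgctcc
Arhgap32 intron, chr9:32122881-32122949, − strand: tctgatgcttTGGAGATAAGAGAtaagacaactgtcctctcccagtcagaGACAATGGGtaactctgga
intergenic, nearest start Kctd12, chr14:102966432-102966508, + strand: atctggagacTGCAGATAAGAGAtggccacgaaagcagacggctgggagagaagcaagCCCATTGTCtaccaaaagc

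Near-ideal motifs came with very different levels of binding. At the AA986860 intron GATA6 stood at 8.05 RPM at 8 h, and SOX17 at 20.8 RPM on day 1 and 6.68 RPM on day 4. The Arhgap32 intron had 5.37 RPM of GATA6 at 8 h but 1.15 RPM on day 4, with 1.31 RPM of SOX17 on day 4. The region nearest Kctd12, in the Late class, had 0.355 RPM of SOX17 on day 4.

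The two-motif regions lay mostly away from promoters. By the GENCODE annotation, 1022 summits (49.8%) were intergenic, 982 (47.8%) in introns, 36 in untranslated regions and 14 in coding sequence. A gene start lay within 1 kb of the summit in 72 (3.51%), against 6.56% of all regions, and the median distance to the nearest start was 30859 bp, against 25683 bp. They were found on every chromosome but Y. Closed chromatin in ES cells, by the authors' accessibility classes, held 73.6% of them (61.3% of all regions), moderately accessible chromatin 24.1% (31.2%) and accessible chromatin 2.34% (7.43%). They were also wide, with a median width of 761.5 bp against 525 bp for all regions. A wider region has more room for a high-scoring match and collects more reads, so values at matched width are given beside the main comparisons. Width comes from the peak calls and may also depend on GATA6 signal, so matched values do not separate width from binding.

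The GATA6 median at the two-motif regions was at its highest by 8 h of Dox. The median GATA6 signal was 0.490 RPM before Dox, 2.60 at 8 h, 2.58 at 16 h, 2.24 on day 1, 1.84 on day 2, 2.21 on day 4 and 2.43 in XEN cells. The median of all regions was 1.49 RPM at 8 h and 1.29 on day 4. Regions with only the GATA6 motif high started at 1.96 RPM at 8 h and stood at 1.27 on day 4, and those with only the SOX17 motif high went the other way, from 1.30 to 1.79. At 8 h the two-motif median was 1.99 times that of the SOX17-high-only regions, and 1.37 times at matched width. The 0 h value rests on 1 library in which 0.490 RPM equals 3 reads, so changes from it carry a large counting error.

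SOX17 arrived later. Its median at the two-motif regions was 0.742 RPM at 0 h, 0.709 at 8 h and 0.800 at 16 h, then 1.50 on day 1, 1.58 on day 2, 1.98 on day 4 and 1.55 in XEN cells. Over all regions the day 4 median was 1.10 RPM. The SOX17-high-only regions reached 1.96 RPM on day 4 and the GATA6-high-only regions 0.939, so that the two-motif median was 2.11 times the latter, and 1.61 times at matched width. The 0 h columns of SOX17, OCT4, SOX2, ESRRB and input gave no depth, so the counting error behind changes from them is unknown. The SOX17 antibody signal at 0 h precedes Dox, and the input median there was 0.561 RPM. What this 0 h signal reflects was not tested, so a fall from it is not read as a loss of SOX17. Up to 16 h, while GATA6 was already at its height, the SOX17 median thus stayed close to its starting level. The 16 h SOX17 values showed a single depth step, as columns of 1 library did, so whether both libraries entered them is not known.

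**Figure D1:**
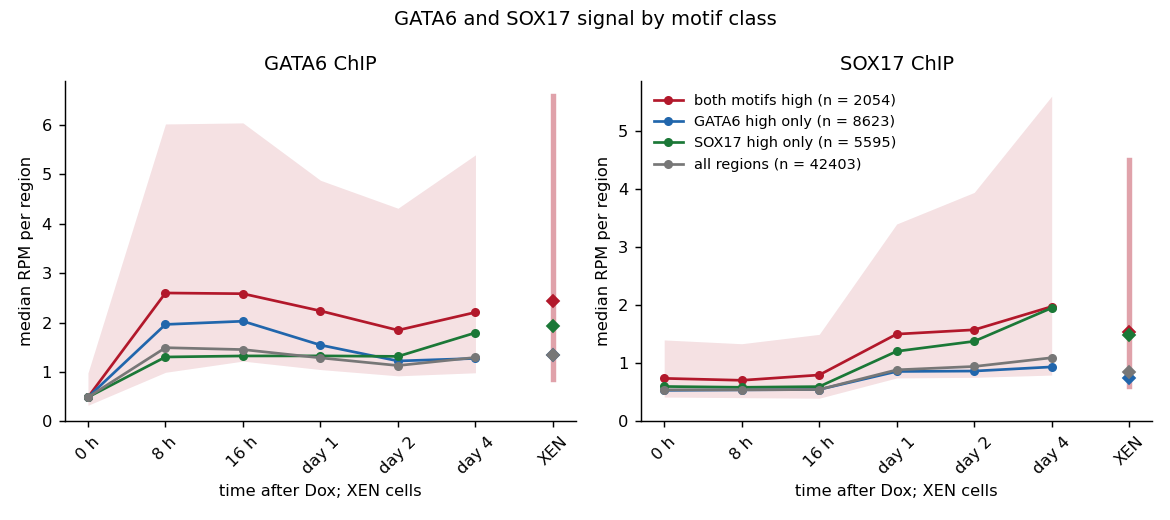
Median RPM of GATA6 and SOX17 (vertical axis) by time after Dox and in XEN cells (horizontal axis) for the two-motif regions, both single-motif sets and all regions; points are medians over regions, and the shading and the bar at XEN give the quartiles of the two-motif regions. GATA6 in the two-motif regions is at 2.60 RPM at 8 h and 2.21 on day 4, while SOX17 goes from 0.709 at 8 h to 1.98 on day 4.

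Having both motifs high went with a GATA6 median at 8 h that was 1.02 higher, as log2(RPM + pseudocount), than in regions with neither high, where the GATA6-high-only regions differed by 0.65 and the SOX17-high-only regions by 0.12. The value for both thus exceeded the sum of the single ones by 0.25. Once regions were compared within 10 classes of equal width, the figures were 0.06 for both, 0.34 for GATA6 high only and −0.31 for SOX17 high only, with 0.03 left over the sum. For SOX17 on day 4 the differences from neither high were 0.82 for both, −0.12 for GATA6 high only and 0.81 for SOX17 high only, and 0.13, −0.44 and 0.50 within width classes. Most of the higher level of the two-motif regions was thus not seen against regions of like width. Width is that of the called GATA6 peak and may itself depend on GATA6 signal. Matching on width may therefore also remove part of a difference in binding, which was not tested. At equal width the two-motif regions stood close to regions with neither motif high in GATA6 at 8 h. In SOX17 on day 4 they stood between both single-motif sets.

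The changes of GATA6 and SOX17 over time moved less when width was matched. From 8 h to day 4 the median log2 change of GATA6 was −0.05 (95% interval over regions −0.18 to 0.07) in the two-motif regions, −0.57 with only the GATA6 motif high, 0.67 with only the SOX17 motif high and −0.02 over all regions. The two-motif median lay above that of the GATA6-high-only regions on 20 of 20 chromosomes and above that of the SOX17-high-only regions on 1. At matched width the values were 0.03, −0.54 and 0.67. A steady median hid large changes both ways: 630 two-motif regions (30.7%) were more than 2-fold higher on day 4 than at 8 h, against 30.9% of all regions, and 705 (34.3%) more than 2-fold lower, against 34.8%. These shares were near the background.

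From 0 h to day 4 the median log2 change of SOX17 was 1.24 (1.17 to 1.33) in the two-motif regions, 0.57 with only the GATA6 motif high, 1.50 with only the SOX17 motif high and 0.79 over all regions. It exceeded the GATA6-high-only value on 20 of 20 chromosomes and the SOX17-high-only value on 3. More than 2-fold gains were seen in 1145 two-motif regions (55.7%), against 44.5% of all regions, and more than 2-fold losses in 129 (6.28%), against 8.72%. By day 1 the median change was 0.83 in the two-motif regions, 0.72 with only the SOX17 motif high and 0.49 with only the GATA6 motif high, and 0.70, 0.72 and 0.50 at matched width. The change from 0 h to 8 h was −0.04 in the two-motif regions. Input chromatin, measured over the same regions, changed by 0.12 from 0 h to day 4.

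**Figure D2:**
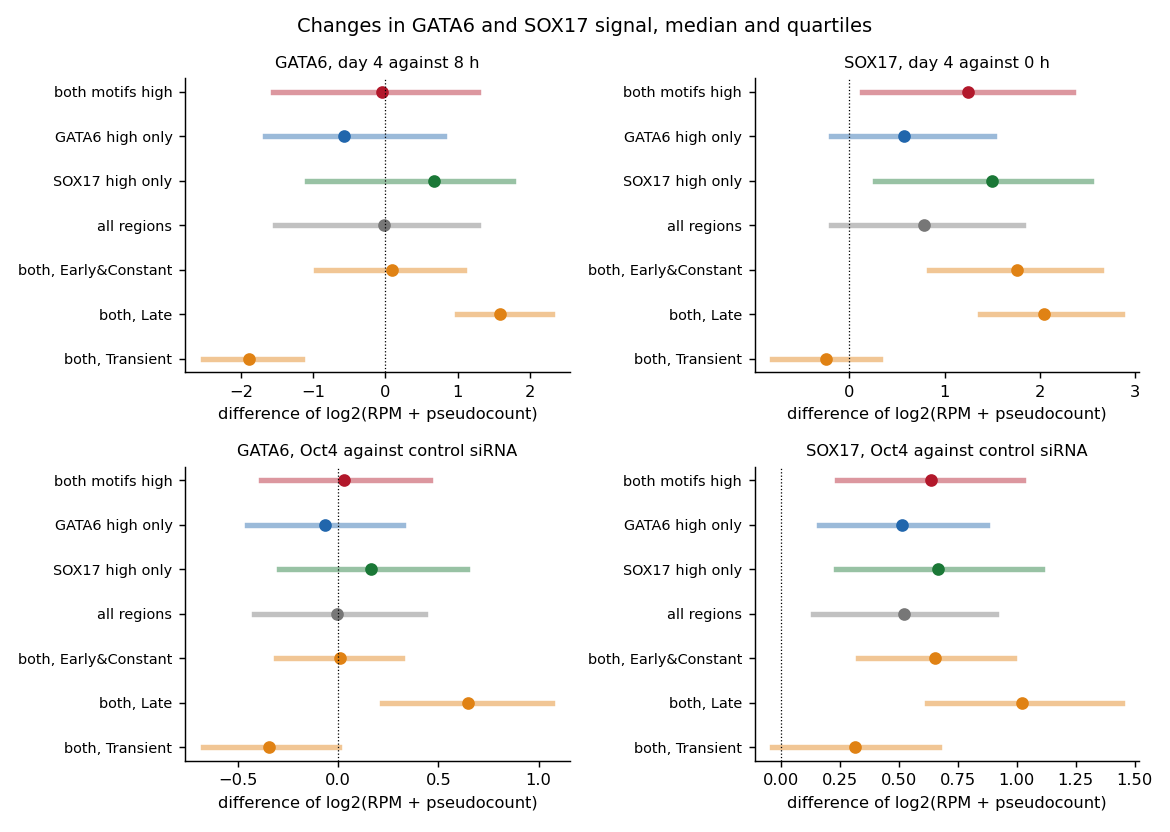
Difference of log2(RPM + pseudocount) (horizontal axis) for GATA6 from 8 h to day 4, SOX17 from 0 h to day 4 and both with Oct4 against control siRNA, in the two-motif regions, both single-motif sets, all regions and the 3 GATA6 classes of the two-motif regions; points are medians and bars quartiles over regions. GATA6 from 8 h to day 4 is −0.05 in the two-motif regions, between −0.57 and 0.67 in the single-motif sets.

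The authors sorted regions by the course of GATA6 binding into Early&Constant, Late and Transient. Among the two-motif regions 980 (47.7%, Wilson 95% interval 45.6 to 49.9) were Early&Constant, 481 (23.4%) Late and 593 (28.9%) Transient, where all regions split into 28.0%, 33.6% and 38.4%. At matched width the Early&Constant share was 35.8%, beside 34.8% with only the GATA6 motif high and 26.7% with only the SOX17 motif high. The Late share at matched width was 33.4%, beside 24.1% and 45.5%. A SOX17 peak had been called in 1237 of the two-motif regions (60.2%, 58.1 to 62.3), against 44.5% of all regions, and in 50.5% at matched width, beside 34.1% and 62.2% in the single-motif sets.

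Within each GATA6 class, SOX17 peaks were more frequent with both motifs high than with only the GATA6 motif high. In Early&Constant regions the shares were 81.8% and 63.5%, against 72.6% of all regions of that class. In Late regions they were 68.4% and 42.6%, against 53.4%. In Transient regions they were 17.9% (15.0 to 21.2) and 9.29%, against 16.2%, so the two-motif share there was near the background. With only the SOX17 motif high the shares were 88.1%, 70.6% and 30.2%. None of these shares was matched for width. Transient regions had the lowest share of SOX17 peaks in each of these sets.

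The classes describe how unlike the two-motif regions were among themselves; since they were made from the same binding data, their levels are given as a description. Early&Constant regions had a median GATA6 signal of 4.23 RPM at 8 h and 4.60 on day 4, Late regions 0.536 and 2.08, and Transient regions 3.29 and 0.785. SOX17 from 0 h to day 4 changed by a median of 1.76, 2.04 and −0.25 on the log2 scale in the same order. Early accessibility went with early GATA6 binding: at 8 h the median was 7.66 RPM in the 48 accessible regions, 5.43 in the 494 moderately accessible and 1.81 in the 1512 closed ones.

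OCT4 at the two-motif regions was highest on day 1. Its median was 0.979 RPM at 0 h, 1.05 at 8 h, 0.973 at 16 h, 1.49 on day 1, 1.32 on day 2 and 1.12 on day 4, with 0.667 in XEN cells, where 1 library was made. Over all regions the medians were 0.703 at 0 h, 0.963 on day 1 and 0.756 on day 4. At matched width the two-motif level, as log2(RPM + pseudocount), differed from that of regions with neither motif high by −0.22 at 0 h, −0.14 on day 1 and −0.11 on day 4. The median log2 change from 0 h to day 1 was 0.50, against 0.37 with only the GATA6 motif high, 0.34 with only the SOX17 motif high and 0.30 over all regions, and it exceeded both single-motif sets on 20 of 20 chromosomes; at matched width the values were 0.44, 0.37, 0.33 and 0.31. By day 2 the median change from 0 h was 0.36, beside 0.34 with only the SOX17 motif high, and higher on 14 of 20 chromosomes. At matched width the order turned, with 0.30 and 0.34. To day 4 the two-motif regions no longer led the SOX17-high-only regions, with 0.30 beside 0.46, higher on 3 of 20 chromosomes. From 0 h to day 2, 404 two-motif regions (19.7%) gained more than 2-fold, against 14.6% of all regions and 20.3% with only the SOX17 motif high, and 55 (2.68%) lost more than 2-fold, against 4.86%.

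SOX2 and ESRRB took separate courses. From 0 h to day 4 SOX2 changed by a median of 0.28 on the log2 scale in the two-motif regions, by 0.00 with only the GATA6 motif high, by 0.42 with only the SOX17 motif high and by 0.10 over all regions. ESRRB changed by −0.38, −0.38, −0.33 and −0.40 in the same sets. The authors called a PTF bound only after Dox ("ectopic") in 491 two-motif regions (23.9%, against 16.6% of all; 17.4% at matched width, against 18.6% with only the SOX17 motif high), a PTF bound already at 0 h in 440 (21.4%, against 20.8%) and none in 1123. These PTF classes were made from peak calls in the same PTF data. Their OCT4 courses may therefore follow from how the classes were made, and are given as a description. In the ectopic class the OCT4 median was 1.24 RPM at 0 h, 2.69 on day 1 and 2.71 on day 4, and the SOX17 median 0.916, 3.10 and 5.47. Regions with a PTF at 0 h had 3.59 RPM of OCT4 at 0 h, 4.77 on day 1 and 2.22 on day 4. GATA6 at 8 h and on day 4 had medians of 3.04 and 5.48 RPM in the ectopic class, 9.82 and 3.40 in regions with a PTF at 0 h and 1.38 and 1.40 in those with none.

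**Figure D3:**
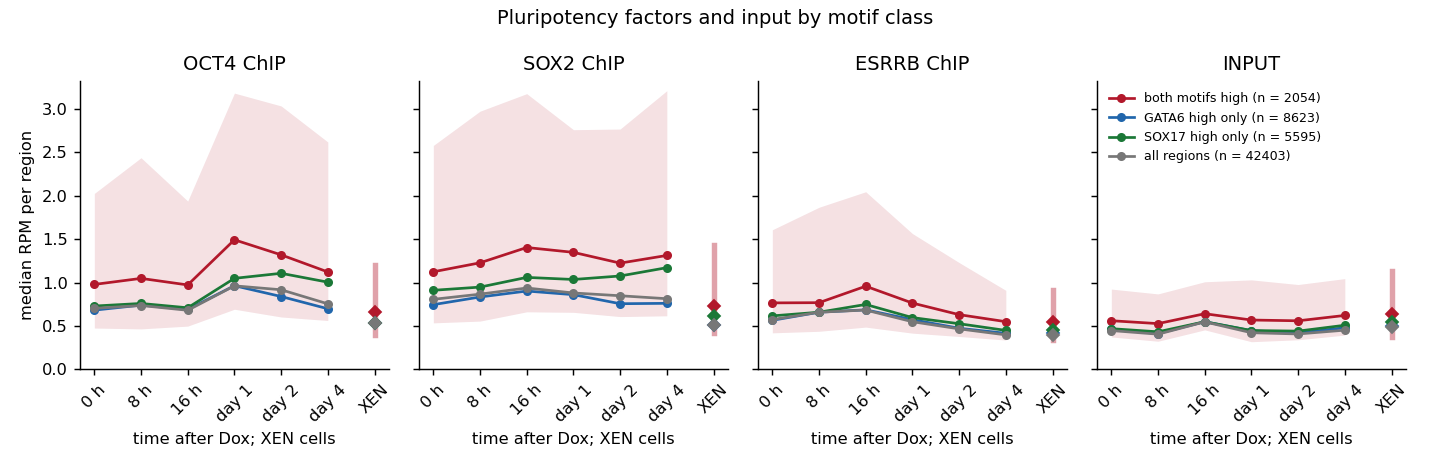
Median RPM of OCT4, SOX2, ESRRB and input chromatin (vertical axis) by time after Dox (horizontal axis) and in XEN cells for the two-motif regions, both single-motif sets and all regions; points are medians over regions, and the shading and the bar at XEN give the quartiles of the two-motif regions. OCT4 in the two-motif regions is at 0.979 RPM at 0 h and 1.49 on day 1, and ESRRB is at 0.766 RPM at 0 h and 0.550 on day 4.

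With Oct4 siRNA instead of control siRNA, 48 h into Dox, SOX17 was higher at the two-motif regions and GATA6 at about the same level. The SOX17 median was 1.54 RPM with control and 2.68 with Oct4 siRNA, and the median log2 difference was 0.64 in the two-motif regions, 0.51 with only the GATA6 motif high, 0.67 with only the SOX17 motif high and 0.52 over all regions, which leaves 0.12 relative to the median region. At matched width it was 0.62, 0.51 and 0.67 in the same 3 sets. More than 2-fold higher SOX17 was seen in 545 (26.5%), against 20.8% of all regions, and more than 2-fold lower in 4 (0.195%), against 0.441%. The GATA6 median was 3.24 RPM with control and 3.46 with Oct4 siRNA, and its median log2 difference 0.03 (−0.01 to 0.05). It was more than 2-fold higher in 152 regions (7.40%), against 7.77% of all regions, and more than 2-fold lower in 81 (3.94%), against 5.28%. The GATA6 difference split by class: its median was 0.01 in Early&Constant, 0.65 in Late and −0.34 in Transient two-motif regions. Of the 152 regions more than 2-fold higher 133 were Late, where 23.4% of the two-motif regions were Late. The classes were made from the GATA6 time course, and the same split over all regions is not given here. It is therefore not read as particular to the two-motif regions. No input column was used for these conditions.

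The distance between both motifs was spread broadly. The centres of the best GATA6 and best SOX17 match lay a median of 171 bp apart (quartiles 74 and 349, range 6 to 4284), and 331 pairs (16.1%, 14.6 to 17.8) lay within 50 bp, against 19.6% of all regions with both motifs; at matched width the shares were 22.1% and 22.3%. The motifs shared a strand in 964 regions and lay on opposite strands in 1090. The GATA6 match sat a median of 47 bp from the peak summit and the SOX17 match 136 bp, the GATA6 match being the nearer in 1379 (67.1%). A SOX17 peak was called in 61.7% of the 149 regions with centres up to 25 bp apart, in 61.5% of those at 25 to 50 bp, 54.2% at 50 to 100 bp, 52.0% at 100 to 200 bp, 60.5% at 200 to 400 bp and 72.5% of the 422 farther apart. The last set was also the widest (median 1292 bp against 506 bp for the closest), and SOX17 per kb on day 4 was 3.52 and 3.54 RPM in the farthest and the closest set.

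**Figure D4:**
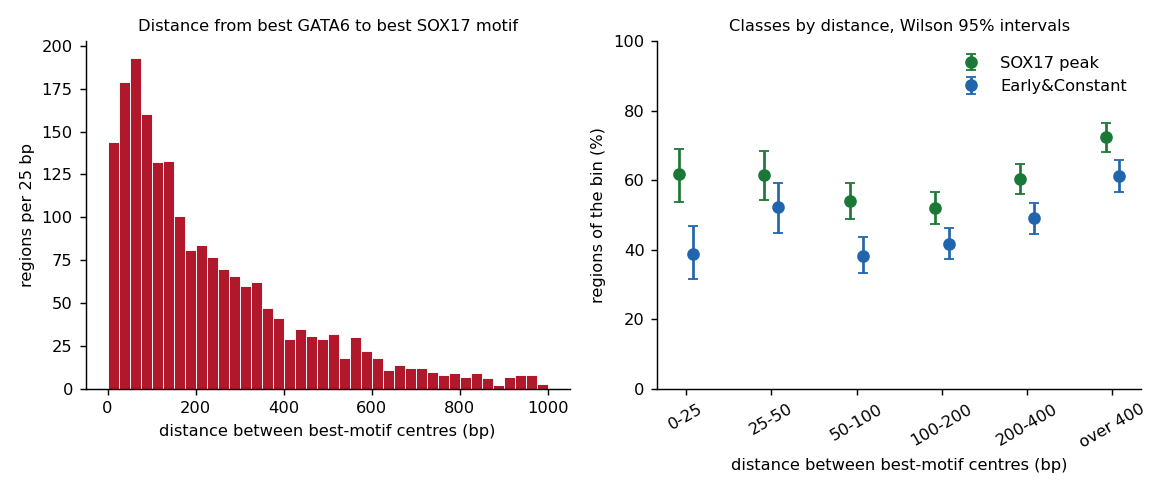
Number of two-motif regions by distance between the centres of the best GATA6 and best SOX17 match, in 25 bp bins with the farthest pairs left out (left), and percent with a SOX17 peak or in the Early&Constant class by distance (right); bars on the shares give Wilson 95% intervals. The SOX17 peak share is 61.7% up to 25 bp, 52.0% at 100 to 200 bp and 72.5% beyond 400 bp.

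In 44 two-motif regions the matches overlapped or touched; 24 had a SOX17 peak, and 20 were Early&Constant, 17 Late and 7 Transient. The most frequent overlap, in 8 regions, had the SOX17 word directly after the GATA word on the opposite strand. These are shown because they hold the same fused word and differ in the letters around it. In the following lines and in the SOX-first ones after them, capitals mark both matches together.

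Cdkl1 intron, chr12:69783785-69783810, − strand: agatCAAAGATAAGACAATGGGtgtc
Washc2 intron, chr6:116227649-116227674, − strand: taagCATAGATAAGACAATGACagta
Ano4 intron, chr10:89330205-89330230, + strand: gcctGAGAGATAAGACAATGAActgt
intergenic, nearest start Gas2l3, chr10:89369903-89369928, − strand: acggTATAGATAAGACAATGAGgatc
SOX first, intergenic near Flt3l, chr7:45137550-45137578, − strand: agaaGACAATGGGGAAGATAAGGAAacca
SOX first, intergenic near Dusp4, chr8:34780939-34780967, − strand: gagaCACAATGGCAGAGATAAGGAAagct

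The fused word did not fix the level of binding. SOX17 on day 4 was 5.27 RPM at the Cdkl1 intron, 2.04 at the Washc2 intron, 0.452 at the Ano4 intron and 0.252 at the region near Gas2l3; across all 8 it ran from 0.252 to 5.27 RPM, with a SOX17 peak in 3. With the SOX17 match first, as in 20 of the 44, SOX17 on day 4 ran from 0.463 to 18.9 RPM (median 1.64) with a SOX17 peak in 11; in the 24 with the GATA6 match first it ran from 0.252 to 11.5 RPM (median 1.92) with a peak in 13. The SOX-first pair shown holds the 2 highest values of that order: SOX17 on day 4 was 18.9 RPM at the region near Flt3l, where GATA6 was 7.76 RPM at 8 h and 17.1 on day 4. The region near Dusp4 had 14.1 RPM of SOX17 on day 4, and 9.77 and 10.6 RPM of GATA6 at 8 h and on day 4.

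Among the two-motif regions 11 shared one of 2 longer sequences, in copies on several chromosomes (at least 75% identical over at least 40 bp, 3 or more copies). The first had 6 copies on 5 chromosomes with the SOX17 match 132 bp after the GATA6 match on the same strand, 87.6 to 93.5% identical over 153 bp. The second had 5 copies on 4 chromosomes with the motifs 72 bp apart, 84.9 to 93.5% identical over 93 bp. A pair of copies of each is shown with both matches in capitals, because copies of one sequence are the closest the table comes to the same element in different places. Reads from near-identical copies can be placed in the wrong one, although the authors kept only reads with a high mapping quality.

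first sequence, Fhit intron, chr14:10129236-10129388, + strand: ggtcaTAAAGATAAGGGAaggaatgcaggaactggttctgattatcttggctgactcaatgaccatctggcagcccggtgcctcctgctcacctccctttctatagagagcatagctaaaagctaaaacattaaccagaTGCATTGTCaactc
first sequence, intergenic, nearest start Mmp16, chr4:18272511-18272663, − strand: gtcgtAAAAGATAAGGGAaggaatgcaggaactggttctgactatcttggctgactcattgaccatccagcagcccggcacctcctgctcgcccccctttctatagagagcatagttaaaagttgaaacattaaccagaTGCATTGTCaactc
second sequence, Slc39a11 intron, chr11:113319259-113319351, + strand: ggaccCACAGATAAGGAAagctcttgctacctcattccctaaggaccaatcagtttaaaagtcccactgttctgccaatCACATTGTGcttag
second sequence, Elmo1 intron, chr13:20384853-20384945, − strand: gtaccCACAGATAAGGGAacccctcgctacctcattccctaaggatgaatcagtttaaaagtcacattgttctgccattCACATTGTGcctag

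All copies of the first sequence had more SOX17 signal on day 4 than all copies of the second. SOX17 on day 4 ran from 1.48 to 6.58 RPM (median 3.28) in the first, from a 0 h median of 0.383, and from 0.199 to 1.33 (median 0.458) in the second, from a 0 h median of 1.52. The day 4 ranges did not overlap, but their nearest values, 1.48 and 1.33 RPM, were close and were not scaled to width. On day 1 the SOX17 ranges did overlap, from 0.515 to 3.50 RPM in the first and from 1.25 to 3.21 in the second. GATA6 ran at 8 h from 0.261 to 3.59 RPM and on day 4 from 0.994 to 4.87 in the first, and from 3.56 to 7.03 and then from 0.591 to 1.47 in the second. All 6 copies of the first had a SOX17 peak, lay in closed chromatin and were Early&Constant (4) or Late (2); of the second, 2 had a SOX17 peak, 2 lay in closed chromatin, 4 were Transient and 1 was Early&Constant. OCT4 at 0 h ran from 0.148 to 1.32 RPM in the first and from 0.822 to 3.24 in the second. SOX2 at 0 h ran from 0.253 to 2.12 RPM in the first and from 1.02 to 5.75 in the second. What the SOX17 antibody signal at 0 h reflects was not tested. Copies of one sequence are not independent of each other.

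**Figure D5:**
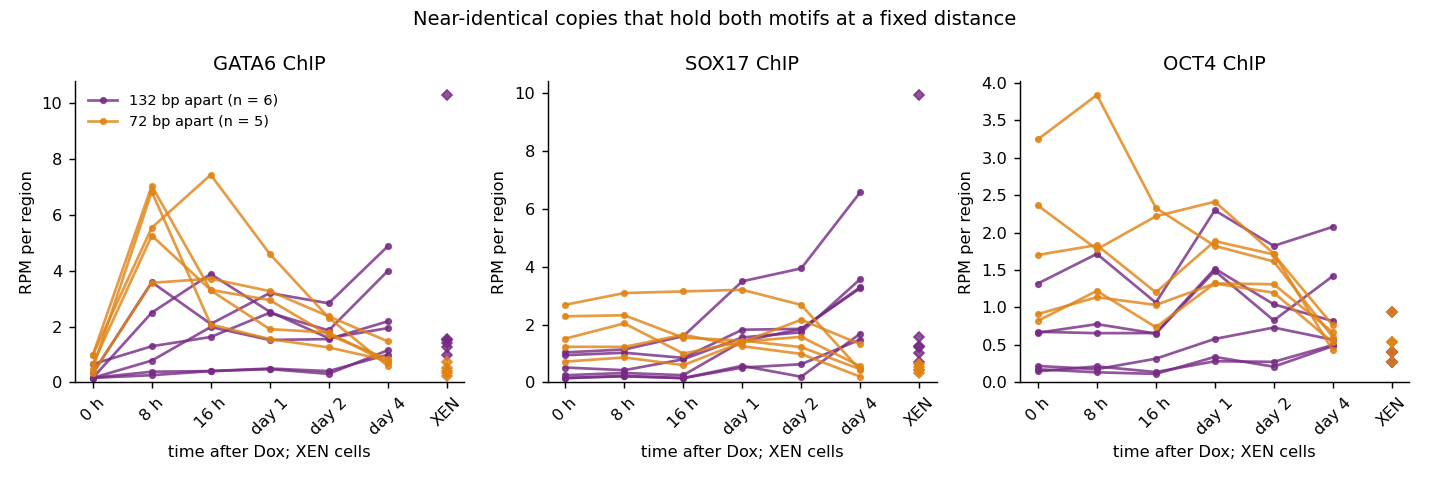
RPM of GATA6, SOX17 and OCT4 (vertical axes) by time after Dox and in XEN cells (horizontal axis) at each of the 6 copies of the first shared sequence (motifs 132 bp apart) and the 5 copies of the second (72 bp apart); each line, and its diamond for XEN cells, is 1 region. On day 4 SOX17 lies between 1.48 and 6.58 RPM in the first and between 0.199 and 1.33 in the second.

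Some genes known for PrE, and a like share of the pluripotency genes, had a two-motif region nearby. Counting summits within 50 kb of a start, 4 of 12 PrE transcription factors, 4 of 10 basement membrane genes, 4 of 10 genes of endocytosis and carriers, 5 of 12 signalling genes and 5 of 16 pluripotency genes had one, where 2344 of 21827 protein-coding genes (10.7%) did. These gene lists are small and were chosen with earlier results known, so the counts are a description. The nearest regions, 20 in all, comprised 17 Early&Constant, 1 Late and 2 Transient, and 19 had a SOX17 peak, where 28.0% of all regions were Early&Constant and 44.5% had a SOX17 peak. They were wide, with a median of 1520 bp. From 0 h to day 4 SOX17 was more than 2-fold higher at 19 of them (44.5% of all regions). GATA6 from 8 h to day 4 was more than 2-fold higher at 12 (30.9% of all) and lower at 2 (34.8%). With Oct4 siRNA GATA6 moved past 2-fold in neither direction at any of the 20, where 7.77% of all regions were higher and 5.28% lower. With shares this low and so few regions, that count is not read as a result.

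Among transcription factors, Sox17 itself had a two-motif region at chr1:4536608-4538990, 40288 bp upstream of its start. There GATA6 was 5.54 ± 0.38 RPM (counting error) at 8 h, 37.9 ± 1.2 on day 4 and 61.1 ± 1.4 in XEN cells, and SOX17 1.98 RPM at 0 h, 13.4 on day 1 and 36.7 on day 4. OCT4 at the same place was 2.34 RPM at 0 h, 12.3 on day 2 and 14.6 on day 4. Gata4, a GATA factor of the same lineage, had one 38320 bp upstream of its start, with GATA6 at 5.54 RPM at 8 h and 29.6 on day 4, and SOX17 at 1.16 RPM at 0 h and 19.9 on day 4. Klf6, a zinc-finger factor, had one 33734 bp upstream with GATA6 at 16.5 and 25.8 RPM at 8 h and on day 4. The Gata4 stretch and those of Cubn, Lamb1 and Lrp2 are shown as examples from the listed genes, with motif centres 127, 18, 17 and 122 bp apart.

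Gata4, chr14:63283713-63283870, − strand: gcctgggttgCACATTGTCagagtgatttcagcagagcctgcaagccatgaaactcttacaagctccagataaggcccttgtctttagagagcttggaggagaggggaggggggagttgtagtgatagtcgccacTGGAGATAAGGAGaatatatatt
Cubn, chr2:13496252-13496300, + strand: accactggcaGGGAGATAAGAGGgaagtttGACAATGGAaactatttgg
Lamb1, chr12:31262019-31262066, + strand: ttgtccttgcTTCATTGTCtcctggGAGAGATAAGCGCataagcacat
Lrp2, chr2:69607778-69607930, − strand: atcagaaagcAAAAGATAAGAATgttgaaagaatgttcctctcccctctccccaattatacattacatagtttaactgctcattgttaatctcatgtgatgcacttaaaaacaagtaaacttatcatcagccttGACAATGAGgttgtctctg

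In an intron of Gata6 (chr18:11051211-11053515), 539 bp from the start, GATA6 was 11.5 RPM at 8 h and 14.3 on day 4, and SOX17 2.82 RPM at 0 h and 9.61 on day 4.

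For the basement membrane, the region in an intron of Col4a1 (chr8:11308478-11310403), 3923 bp from that gene's start and 3902 bp upstream of Col4a2, both collagen IV chains, had the highest SOX17 value of all two-motif regions on day 4. SOX17 there was 4.99 RPM at 0 h, 33.2 on day 1, 114 on day 4 and 16.8 in XEN cells, and GATA6 16.8 at 8 h, 49.1 on day 4 and 14.4 in XEN cells. Both factors were thus lower in XEN cells than on day 4. Near Lamb1, a laminin chain, GATA6 was 2.33 RPM at 8 h and 9.50 on day 4 and SOX17 1.18 at 0 h and 15.1 on day 4. Near Serpinh1, a collagen chaperone, GATA6 was 2.54 and 8.63 RPM at the same times.

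All 4 regions of the endocytosis and carrier genes lay in closed chromatin and had an ectopic PTF. Near Cubn, the cubilin receptor, GATA6 was 7.84 RPM at 8 h and 33.0 on day 4, and SOX17 2.32 RPM at 0 h and 37.1 on day 4. Near Lrp2, its partner megalin, GATA6 was 1.32 ± 0.18 RPM at 8 h, 13.5 ± 0.69 on day 4 and 3.81 ± 0.36 in XEN cells (counting error). Ttr, which carries thyroid hormone, had 9.36 and 19.8 RPM of GATA6 at 8 h and on day 4, and Ctsl, a lysosomal protease, 1.86 and 7.85 RPM.

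Signalling genes were less uniform. Near Pdgfra, the PrE receptor for PDGF, GATA6 was 21.6 RPM at 8 h and 22.7 on day 4, with SOX17 at 3.64 RPM at 0 h and 29.9 on day 4. Near Dkk1, a Wnt inhibitor, GATA6 was 18.4 RPM at 8 h and 9.05 on day 4, and with siRNA 31.9 RPM with control and 17.6 with Oct4. At Pth1r, a hormone receptor, the region was the Late one and lay in introns of both Pth1r and Myl3, with GATA6 at 1.66 and 6.89 RPM. The region 104 bp upstream of the start of Fgf3, a growth factor gene, lay in an annotated Fgf3 intron and was also the nearest to Fgf4; GATA6 there had 6.23 and 5.26 RPM. Near Tdgf1, a Nodal co-receptor, the region was Transient and the only one of the 20 without a SOX17 peak: GATA6 was 6.71 RPM at 8 h and 1.01 on day 4 (named after its values were seen).

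Pluripotency genes included Klf4 and Klf5, factors that sustain ES cells. GATA6 near Klf4 was 1.61 RPM at 8 h and 12.5 on day 4, with SOX17 at 1.32 RPM at 0 h and 10.5 on day 4. At Klf5 SOX17 was already 16.4 RPM on day 1 and 15.9 on day 4, and OCT4 went from 2.53 RPM at 0 h to 17.7 on day 4. Lefty1, a Nodal inhibitor, had low levels throughout, with GATA6 at 1.85 and 1.60 RPM. The region of Tbx3 was Transient by class, yet its GATA6 values, 0.868 RPM at 8 h and 1.24 on day 4, were low and ran the other way (named after its values were seen).

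For GATA6 at 8 h and OCT4 on day 2 the highest values lay in wide regions outside these lists. GATA6 at 8 h was 75.2 RPM at chr14:72843659-72848909, an intergenic region nearest Fndc3a, 73.3 at chr5:123134464-123138762 near Rhof and 54.5 in an intron of Adora1 (chr1:134225648-134227606). The same chr14 and chr5 regions had the highest OCT4 on day 2, 40.6 and 38.9 RPM, followed by an intron of Arid5b (chr10:68229268-68232863) with 26.7. For SOX17 on day 4, the Arid5b intron with 54.5 RPM and chr3:121616927-121618897, an intergenic region, with 48.9 followed Col4a1.

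The lowest high GATA6 score was 12 and the highest score below the group 11.9907. Within 0.2 of the limit, the median GATA6 signal at 8 h was 2.29 RPM in 131 regions inside and 2.78 in 144 outside, and SOX17 on day 4 1.80 and 2.03 RPM. At the SOX17 limit (11.0568 inside, 10.9886 outside) the 230 regions inside had 1.83 RPM of SOX17 on day 4 and the 290 outside 1.99. At the OCT:SOX limit, where the rule takes the lower side, 103 regions within 1 of it had 4.74 RPM of GATA6 at 8 h and the 83 beyond it 6.55.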

How the data were processed

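Reads from the ChIP libraries were trimmed with cutadapt, aligned to mm10 with Bowtie2, filtered on mapping quality and deduplicated by the authors with molecular identifiers and SAMtools; peaks were called with MACS2. The deposited table gives, per GATA6 region, the authors' read counts corrected for library size (RPM, replicates pooled in 1 column per condition, 45 columns used), the motif score and number of the best FIMO match for each motif, and class labels. 14 per-sample columns of other assays were not used here, nor was a class of the authors' own Oct4 siRNA test. Depth, read from the steps of the low RPM values in 40 columns, was 5.42 to 69.4 M reads (median 15.3 M), which gives a counting error of 7.63 to 57.7% at the median two-motif region. The other 5, the 0 h columns of SOX17, OCT4, SOX2, ESRRB and input, gave no depth. SOX17 at 16 h and ESRRB at 8 h, with 2 libraries each, showed a single depth step, like the columns of 1 library. Whether both libraries entered these columns is not known.

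Log2 changes were computed as log2(RPM + pseudocount), with the 5th percentile of each antibody's values as pseudocount (GATA6 0.193, SOX17 0.192, OCT4 0.167, SOX2 0.195, ESRRB 0.164, input 0.158); fold changes are on that scale. "More than 2-fold" is a threshold on size, not a test. Intervals are exact binomial for medians and Wilson for shares, over regions, and cover no culture error. Matched width means the mean over 10 classes of equal number by width. The rule, gene lists and named regions were chosen with earlier results of these data known. Named were the 3 regions highest in SOX17 (day 4), GATA6 (8 h) and OCT4 (day 2), the region nearest each listed gene within 50 kb (up to 20 by GATA6 on day 4), those at the score limits and those of highest summed score. Sequences were read from GRCm38 and places from GENCODE M21. Python 3.11.15, pandas 2.3.3, numpy 2.4.6, scipy 1.17.1, pysam 0.24.0 and matplotlib 3.10.9 were used, after the steps were tested on simulated data.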

Additional observations from a re-analysis of the deposited data

How the results depend on the processing

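No paired analysis was possible because the replicates of a condition share 1 column, and for the same reason none could be left out. Of 73 alternative values for 10 results, 35 stayed within the interval of the reported value and 38 moved. The cause was not tested. A reversal could be called only for the ratios and for changes whose interval excluded 0, and none was. It could not be called for the shares or for both GATA6 changes, whose intervals span 0. Matched width was planned for the ratios of levels and added for the other results after seeing the data. The GATA6 change from 8 h to day 4, reported as −0.05, changed sign in some settings. It was 0.38 with motifs in the high or mid group, 0.046 above the median level and 0.026 at matched width. In the other settings it stayed negative, with −0.18 after input subtraction. For the SOX17 change to day 4, a 10-fold larger pseudocount gave 0.53, a 10-fold smaller one 1.47, regions whose highest RPM was above the median 1.89, high or mid motifs 1.36, centring on all regions 0.45 and input subtraction 1.99. For the OCT4 change to day 2 the larger and smaller pseudocount gave 0.14 and 0.43, regions above the median level 0.54, centring 0.13, input subtraction 0.64 and matched width 0.30. The GATA6 difference with Oct4 siRNA was 0.10 with high or mid motifs and 0.067 at matched width; that of SOX17 was 0.33 and 0.71 with the pseudocounts, 0.73 above the median level and 0.12 after centring. The ratio of the SOX17 median on day 4 to that of the GATA6-high-only regions, 2.11 as reported, was 1.73 per kb, 1.61 at matched width and 3.05 after input subtraction. The ratio of the GATA6 median at 8 h to that of the SOX17-high-only regions, 1.99 as reported, was 1.58 per kb, 1.78 by means, 1.37 at matched width and 2.43 after input subtraction. The SOX17 peak share was 72.0% above the median level, 49.9% without any OCT:SOX motif and 50.5% at matched width. The Early&Constant share was 40.6% with high or mid motifs, 59.8% above the median level, 33.3% without OCT:SOX motif and 35.8% at matched width. The share of motif pairs within 50 bp was 26.7% in 101 regions with 1 motif of each kind, 27.3% in 539 regions no wider than the median of all regions, 20.0% with high or mid motifs and 22.1% at matched width (all regions 22.3%). Among columns with a known depth, counting error at the median two-motif region was largest for GATA6 at 0 h (57.7%) and OCT4 in XEN cells (44.7%).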

Other observations

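Short arrangements of the words GATAA and ATTGT (or its complement ACAAT), searched on both strands with 0 to 12 bases between them, came in 52 forms over all regions. Each form was found in 71 to 275 regions (median 132), of which 1 to 23 (median 14) were two-motif regions. The most frequent, GATAA followed by ACAAT 5 bases later, was in 275 regions (0.649%), 20 of them two-motif regions. Of the 275, 74.5% had a SOX17 peak, against 44.5% of all regions, and their median width was 626 bp against 525 bp. Of the 20 two-motif regions 11 had a SOX17 peak, where 60.2% of all two-motif regions did. ATTGT 1 base after GATAA was in 258 regions with a SOX17 peak in 64.3%. Of these, 23 were two-motif regions, 15 of them with a SOX17 peak. A best OCT:SOX match, below the high group, was given for 1649 two-motif regions, and it overlapped the best SOX17 match in 96 (5.82%). Of the best GATA6 matches 122 (5.94%) and of the best SOX17 matches 150 (7.30%) lay in sequence masked as repeats, and both did so in 25 regions (1.22%).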
